A study of Danio rerio with 6 samples.

Results

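The Lsm genes encode small proteins that close into rings on RNA. The ring of Lsm2 to Lsm8 sits in the nucleus on the uridine-rich 3′ end of U6 snRNA, an RNA of the spliceosome, and protects it. In the ring of Lsm1 to Lsm7, Lsm1 takes the place of Lsm8, and this ring works in the cytoplasm, where it binds the 3′ ends of mRNAs that are about to lose their caps. Lsm10 and Lsm11 belong to another particle, the U7 snRNP, which cuts the 3′ ends of histone mRNAs. Sart3, whose gene is mutated here, is known as a recycling factor that binds U6 and helps it to pair again with U4 snRNA.

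The genes were chosen by name, *lsm1* to *lsm8* with *lsm10* and *lsm11*, and 9 of the 10 names were found among the 37898 genes of the count table. 8 of the 9 had enough counts for a test. The difference between *sart3* mutants and siblings was known when the family was chosen, so the fold changes and calls below describe these genes and test nothing about them. Measures that played no part in the choice are the levels in siblings and the splicing events.

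RNA came from whole zebrafish larvae at 4 days post fertilization (dpf). The mutants were *sart3*-/- (3 libraries), which the study names after the allele smu471, made by chemical mutagenesis and described as a nonsense mutation. The controls were their wild-type (WT) siblings (3 libraries). Both came from crosses between *sart3*+/- fish and were told apart by high-resolution melting of a PCR product, and no transgene is named for either group. How many larvae went into a library, and whether the libraries of a group came from separate clutches, is not given in the sources used here, so the spread between libraries may be technical.

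The libraries held between 16008788 and 18310233 counts on genes. Of 24809 genes tested, 6924 (27.9%) were called, 3368 higher (13.6%) and 3556 lower (14.3%) in mutants, at an adjusted p under 0.05 from edgeR's quasi-likelihood test. The median log2 fold change of all genes tested was 0.0079. *sart3* itself (chromosome 5, 20453874 to 20481389) had 1178, 1218 and 1246 counts in siblings and 923, 772 and 825 in mutants, a log2 fold change of -0.44 with a standard error (SE) of 0.072. Its mRNA was lower and still present in mutants. This level does not check the labels, since 14.3% of all genes tested were lower as well. In the mutants, 4 of 4 photoreceptor markers and 3 of 3 exocrine pancreas markers were lower. The summed level of the photoreceptor markers was 3400 to 4381 CPM (counts scaled to library size) in siblings and 1095 to 1232 in mutants, and that of the pancreas markers was 2120 to 2141 and 46.17 to 58.82 CPM. Of 6 proliferation markers 5 were lower, with sums of 655.7 to 743.9 and 431.6 to 478.4 CPM. One of 3 neuron markers, *neurod1*, was lower, while the sums overlapped at 841 to 938.7 and 830.2 to 872.1 CPM. Of the skeletal muscle markers, *actc1b* was higher and *ckma* lower, *mylpfa* had at most 2 counts in any library, and the sums were 16300 to 18820 and 20750 to 22090 CPM. The erythroid marker *hbbe1.1* was not called, *alas2* had at most 1 count in any library, and *hbae1.1* was not analysed. The erythroid sums, 79.08 to 130.5 and 65.39 to 256.9 CPM, therefore rest almost wholly on *hbbe1.1*. These larvae therefore differed in the levels of cell type markers beside the Lsm genes, and the part of this in the Lsm values was not tested. In RNA from whole larvae, fewer cells of a type and less RNA per cell cannot be told apart.

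Among the Lsm genes, *lsm7*, *lsm8*, *lsm6* and *lsm4* were higher in mutants, and all of them belong to the nuclear ring. Of these, *lsm4*, *lsm6* and *lsm7* belong to the cytoplasmic ring as well. The other nuclear ring genes that could be measured, *lsm3* and *lsm5*, are also shared by both rings and had nearly the same level in both groups. *lsm1*, which sets the cytoplasmic ring apart, had a log2 fold change of 0.44 (SE 0.16) and was not called. *lsm11* of the U7 particle was not called, and *lsm10* had too few counts. Thus 4 of the 8 genes tested were called higher and 0 lower, beside 13.6% and 14.3% of all genes tested. The groups did not overlap in CPM for 5 of the 8, the 4 called genes and *lsm1*, beside 45.2% of all genes tested. Nothing is read from these shares, since the choice of genes had this contrast in view.

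**Figure D1:**
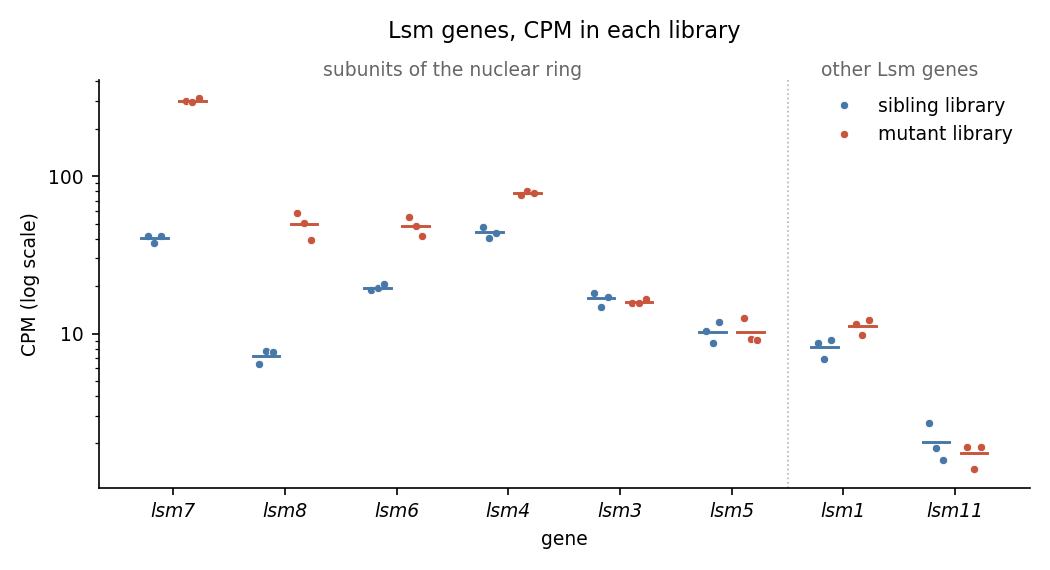
CPM of 8 Lsm genes in each library, on a log scale, with 3 sibling libraries (blue) and 3 mutant libraries (red) per gene and a bar at the mean. The points of *lsm7*, *lsm8*, *lsm6* and *lsm4* separate widely, those of *lsm1* narrowly, and those of *lsm3*, *lsm5* and *lsm11* overlap; *lsm10* is not drawn because it has 0 counts in one library.

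*lsm7* (ENSDARG00000058328) had the largest count difference of the family. It lies on the plus strand of chromosome 22 from 10752511 to 10756047, in the coordinates of the deposited table (GRCz11). The siblings had 745, 669 and 745 counts and the mutants 5162, 4766 and 5223. The lowest mutant library thus held several times the counts of the highest sibling library, and libraries of one group lay close together. Scaled to library size, the level was 40.5 ± 2.35 CPM (SD, n = 3) in siblings and 302.5 ± 8.19 CPM (SD, n = 3) in mutants, a log2 fold change of 2.90 (SE 0.069), or 7.46-fold. With genes ordered by log2 fold change, *lsm7* was number 92 of the 24809 tested.

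*lsm8* (ENSDARG00000091656, chromosome 4, plus strand, 9536860 to 9539424) is the subunit found in the nuclear ring and not in the cytoplasmic one. The sibling libraries counted 114, 137 and 135 reads on it, and the mutant libraries 1003, 814 and 660. Every mutant library was above every sibling library, and the mutant libraries differed among themselves more than those of *lsm7*, from 39.4 to 58.0 CPM. The means were 7.25 ± 0.742 CPM (SD, n = 3) and 49.4 ± 9.38 CPM (SD, n = 3), with a log2 fold change of 2.77 (SE 0.16), or 6.81-fold. It was number 106 in the same order of log2 fold changes.

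A further transcript was counted at nearly the same coordinates on an alternate contig of chromosome 4, from 9536972 to 9539472. The authors' table gives it no gene name and an LSM protein domain. An alternate contig is a second version of a stretch of a chromosome kept in the assembly, so reads of near-identical genes can be split between both. This transcript had 71, 52 and 50 counts in siblings and 292, 383 and 392 in mutants, a log2 fold change of 2.72 (SE 0.20). In mutants it was lowest in the library where *lsm8* was highest, at 16.9 CPM beside 23.9 and 23.4 CPM in the other libraries. When both were summed, a step chosen after the values were seen, the sibling libraries held 185, 189 and 185 counts and the mutant libraries 1295, 1197 and 1052. The summed level was 10.5 ± 0.165 CPM in siblings and 70.8 ± 6.89 CPM in mutants (SD, n = 3). The log2 fold change was then 2.75, and its standard error fell from 0.16 to 0.099. The alternate contig held 38.4%, 27.5% and 27.0% of the summed counts in siblings and 22.5%, 32.0% and 37.3% in mutants, so both groups drew on both versions. How the authors' counting treated reads that match both is not given in the sources used here.

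**Figure D2:**
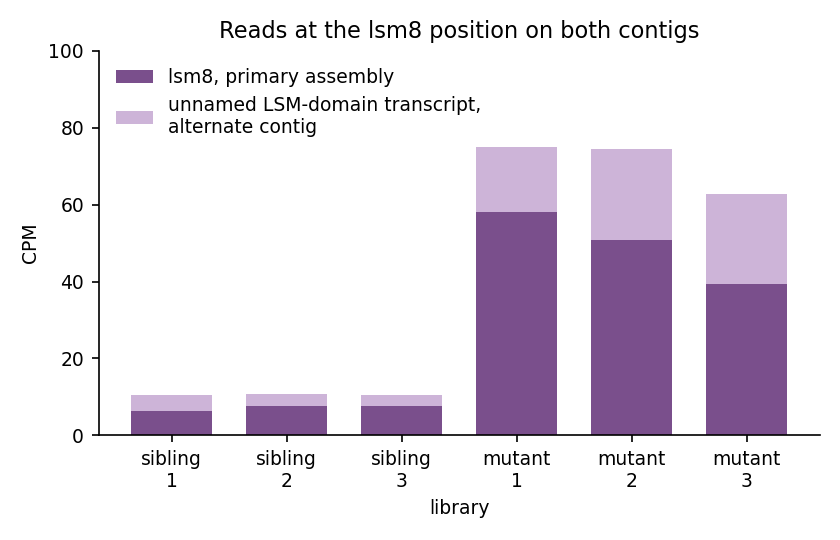
CPM at the *lsm8* position in each library, with reads counted on *lsm8* (dark) stacked under reads counted on the unnamed LSM-domain transcript of the alternate contig (light). The stacks of the siblings reach 10.4 to 10.7 CPM and those of the mutants 62.8 to 74.9 CPM, and the light part varies between libraries of the same group.

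*lsm6* (ENSDARG00000036995, chromosome 1, plus strand, 36194761 to 36204000) and *lsm4* (ENSDARG00000023852, chromosome 11, minus strand, 6859876 to 6868474) are shared by both rings, as is *lsm7*. *lsm6* had 337, 342 and 365 counts in siblings and 949, 771 and 697 in mutants. No mutant library came near the sibling values, and its CPM went from 19.6 ± 0.861 to 48.2 ± 6.65 (SD, n = 3), for a log2 fold change of 1.30 (SE 0.11). *lsm4* had 846, 720 and 772 counts in siblings and 1308, 1298 and 1317 in mutants. Its libraries were also apart, but by a smaller factor, from 43.9 ± 3.40 to 78.4 ± 2.60 CPM (SD, n = 3), for a log2 fold change of 0.84 (SE 0.078), or 1.79-fold.

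*lsm3* (ENSDARG00000089663, chromosome 22, minus strand, 31660964 to 31672566) had 324, 262 and 304 counts in siblings and 272, 252 and 276 in mutants. *lsm5* (ENSDARG00000071573, chromosome 12, minus strand, 13331526 to 13337037) had 185, 154 and 209 counts in siblings and 217, 148 and 152 in mutants. For both genes the groups overlapped. The log2 fold change of *lsm3* was -0.06, with a 95% confidence interval of -0.33 to 0.20. That of *lsm5* was 0.00063, with an interval of -0.41 to 0.42. These intervals lie below the fold changes of *lsm4*, *lsm6*, *lsm7* and *lsm8*, and they leave room for smaller differences in either direction. *lsm3* and *lsm7* are both on chromosome 22, far apart.

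The remaining subunit of the ring, *lsm2*, was not analysed under that name. The reference names pair the identifiers ENSDARG00000070867, called *smx5* in the table, and ENSDARG00000103066, called LSM2 (1 of many), with LSM2. Both lie on the plus strand of chromosome 6 and overlap, from 28205284 to 28207746 and from 28205296 to 28211513. *smx5* had 0 counts in every library, and the other identifier had 1 count, in sibling library 2. Reads that fit both identifiers may have been left out of the counts, so these values are not read as absence of *lsm2* mRNA. A transcript with an LSM domain and no gene name was counted within 10 kb of these coordinates on an alternate contig of chromosome 6, with 196, 147 and 261 counts in siblings and 241, 147 and 189 in mutants. The groups overlapped, and the log2 fold change was 0.02 (SE 0.23). Another such transcript, on a different alternate contig of chromosome 6, had 6, 11 and 12 counts in siblings and 1, 8 and 1 in mutants, too few for the test. Neither was taken as *lsm2*, and the ring is described from its other 6 subunits.

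*lsm1* (ENSDARG00000043177, chromosome 8, plus strand, 44613135 to 44618213) had 156, 121 and 162 counts in siblings and 200, 158 and 204 in mutants. In CPM the sibling libraries reached at most 9.13 and the mutant libraries began at 9.84, so the groups were just apart. The means were 8.24 ± 1.23 and 11.2 ± 1.21 CPM (SD, n = 3). The 95% confidence interval of its log2 fold change of 0.44 was 0.07 to 0.82, an interval not adjusted for the number of genes.

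*lsm11* (ENSDARG00000090854, chromosome 14, minus strand, 35392736 to 35405723) had 48, 33 and 28 counts in siblings and 33, 22 and 32 in mutants. These values overlapped, with a log2 fold change of -0.24 (SE 0.31). At this depth a difference of moderate size was not detectable, since the 95% confidence interval ran from -0.94 to 0.47. *lsm10* (ENSDARG00000101222, chromosome 19, plus strand, 3840955 to 3846637) had 2, 1 and 5 counts in siblings and 6, 5 and 0 in mutants. It was left out of the test, and no difference is read from these counts.

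**Figure D3:**
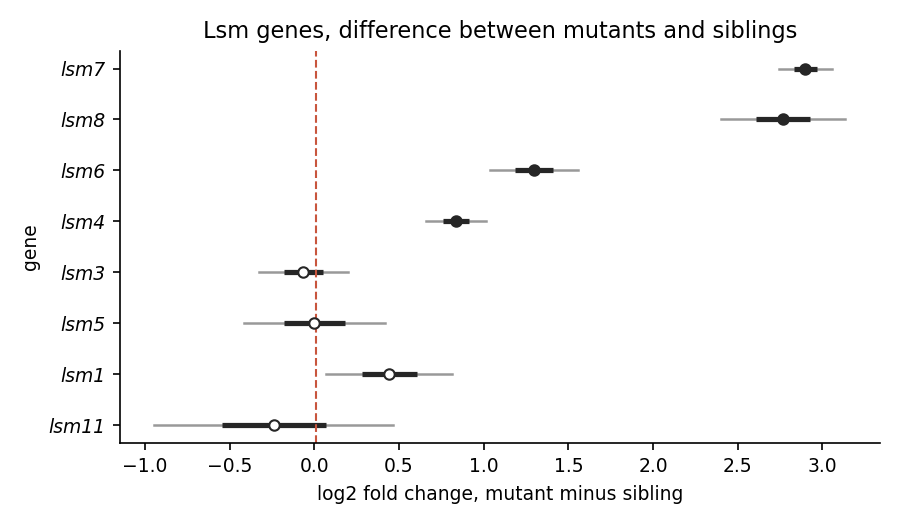
Log2 fold change (mutant minus sibling) of 8 Lsm genes, with thick bars for the standard error, thin bars for the 95% confidence interval, filled points for called genes and a dashed line at the median of all genes tested, 0.0079. The 4 filled points run from 0.84 (*lsm4*) to 2.90 (*lsm7*), and the open points stay between -0.24 (*lsm11*) and 0.44 (*lsm1*).

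Levels of different genes were compared per length, in FPKM (counts scaled by gene length and library size), as the authors deposited them. In siblings, *lsm4* had the highest level, 48.5 ± 4.34 FPKM (SD, n = 3), followed by *lsm7* with 44.2 ± 2.82, and the libraries of these genes overlapped. *lsm6* came next with 26.0 ± 0.890 FPKM, apart from its neighbours in the order. Lower levels were found for *lsm8* (11.4 ± 1.03 FPKM), *lsm3* (10.04 ± 1.13), *lsm1* (8.89 ± 1.35) and *lsm5* (7.46 ± 1.104). In this stretch each gene overlapped the next, so their order is not firm. With the reads of the alternate contig added, *lsm8* was at 16.6 ± 0.241 FPKM in siblings, below *lsm6* and clear of *lsm3*, and that overlap ended. *lsm11* (1.42 ± 0.421 FPKM) and *lsm10* (0.161 ± 0.124) were below all of them. By this measure the U7 subunits were the lowest of the 9 genes found, and the transcripts of the nuclear ring were unequal in siblings alone. *lsm10* overlaps another gene on the same strand, so its few counts may not give its full level. The order depends on the gene lengths used, which ran from 628 bases (*lsm8*) to 1650 (*lsm3*) within the ring. In CPM, which leaves length out, *lsm3* was at 16.7 and *lsm8* at 7.25 in siblings.

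In mutants the order was led by *lsm7* alone, at 328.5 ± 9.01 FPKM (SD, n = 3). *lsm4* (86.2 ± 2.87 FPKM), *lsm8* (77.6 ± 14.7) and *lsm6* (63.7 ± 8.76) came next, each overlapping the one after it. With the reads of the alternate contig added, *lsm8* was at 111.2 ± 10.8 FPKM in mutants, from 98.8 to 117.7, above every *lsm4* library, so it came second and these genes no longer overlapped. *lsm1* (12.0 ± 1.31 FPKM), *lsm3* (9.56 ± 0.267) and *lsm5* (7.43 ± 1.42) followed, and of these *lsm3* and *lsm5* overlapped their own values in siblings. *lsm11* had 1.19 ± 0.214 FPKM and *lsm10* 0.235 ± 0.205.

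The summed level of the 6 ring transcripts was 147.6 ± 8.13 FPKM in siblings and 572.9 ± 15.5 FPKM in mutants (SD, n = 3). The share of *lsm7* in this sum was 30.1%, 29.6% and 30.1% in the sibling libraries and 55.0%, 56.5% and 60.6% in the mutant libraries. The share of *lsm8* was 7.78% in siblings and 13.5% in mutants on average, and 10.9% and 18.3% with the reads of the alternate contig added, when *lsm7* had 28.9% and 54.2%. *lsm4* had a share of 32.8% in siblings and 15.1% in mutants although its own level was higher in mutants, and *lsm6* went likewise from 17.6% to 11.1%. *lsm3* (6.79% and 1.67%) and *lsm5* (5.04% and 1.29%) had small shares in both groups. The ratio of *lsm7* to *lsm5* in FPKM was 5.98 ± 0.589 in siblings and 45.3 ± 8.40 in mutants. As a single measure of this unevenness, the standard deviation over the 6 genes of log2(FPKM + 0.1) was 1.16 ± 0.0436 in siblings and 2.08 ± 0.0473 in mutants (SD over libraries, n = 3). Without *lsm7*, the difference between the groups in this measure was 0.625 in place of 0.923, and with the alternate contig reads added to *lsm8* it was 1.02. RNA levels do not give the amounts of the proteins, which join the ring one to one.

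**Figure D4:**
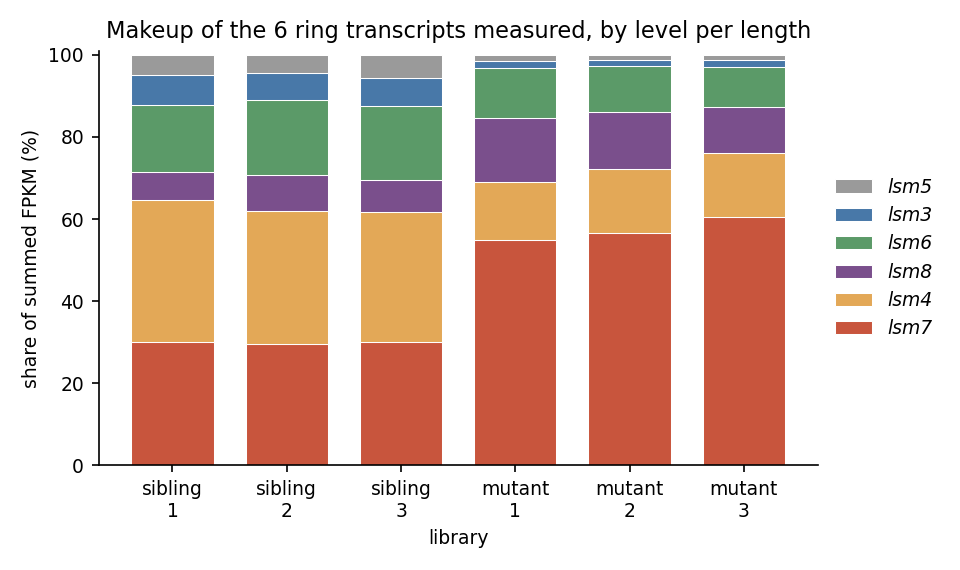
Share of each of 6 ring transcripts in their summed FPKM, in percent, for each library. *lsm7* takes between 29.6% and 30.1% of the bar in siblings and between 55.0% and 60.6% in mutants, while the shares of *lsm3* and *lsm5* shrink to thin bands.

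The nuclear and the cytoplasmic ring differ in one subunit each, so the ratio of *lsm8* to *lsm1* sets their own transcripts beside each other. In FPKM the sibling libraries had ratios of 1.07, 1.66 and 1.22, and the mutant libraries 7.34, 7.54 and 4.73. The ratio was above 1 in every library, and the mutant libraries were all above the siblings. The mean log2 ratio was 0.37 ± 0.32 in siblings and 2.67 ± 0.38 in mutants (SD, n = 3), a difference of 2.30. With the reads of the alternate contig added to *lsm8*, siblings had ratios of 1.74, 2.29 and 1.67 and mutants of 9.48, 11.1 and 7.55, and the difference was again 2.30 on the log2 scale.

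Splicing was examined in the tables of the program rMATS, which compares junction reads that include or skip a piece of a transcript. Of 2075 events in 1574 genes, 0 were in an Lsm gene or in the identifiers paired with LSM2. An event was found in few of the 37898 genes of the count table, so nothing is read from 0 in these genes. The tables list only events that had passed the authors' threshold, so smaller or thinly covered changes in these genes cannot be seen. The relatives *lsm14ab* and *atxn2*, which carry an LSM domain in longer proteins, each had a skipped exon. Events were listed because of a difference between these same groups, so the values and p-values below describe them and are no further evidence. The exon of *lsm14ab* (chromosome 18, 312509 to 312601, 93 bp) was included by 10, 18 and 13 junction reads and skipped by 163, 120 and 123 in siblings. In mutants it had 91, 55 and 36 inclusion reads and 89, 85 and 71 skipping reads. Inclusion, the share of the inclusion form after reads are divided by the effective lengths of both forms, was 0.0607 ± 0.0241 in siblings and 0.303 ± 0.0759 in mutants (SD, n = 3). The groups did not overlap (difference 0.242; a two-sided exact permutation test gave p = 0.1, the lowest possible with 3 values against 3). The summed expression of *lsm14ab* hardly moved, with a log2 fold change of 0.08 (SE 0.080). The *atxn2* exon (chromosome 5, 41683530 to 41683745, 216 bp) had 8, 14 and 0 inclusion reads and 9, 0 and 11 skipping reads in mutants, and its inclusion overlapped between the groups (difference 0.389, exact permutation test, two-sided, p = 0.4). An event of mutually exclusive exons in the Sm gene *snrpe* also overlapped (difference 0.0697, exact permutation test, two-sided, p = 0.2). The tables do not name the library behind each value, and which set of values is the mutant group was read from the order of the comparison in their names and from values shown in the study's supplement.

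The genes next to the Lsm genes, within 10 kb, were examined because counting with or without strand can move reads between neighbours. *sass6*, a centriole assembly gene on the other strand, has its own start 39 bases from the start of *lsm7*. The genes run away from each other. It had 53, 64 and 77 counts in siblings and 126, 129 and 119 in mutants, a log2 fold change of 1.04 (SE 0.19). This was above the siblings in every library and well below the difference of *lsm7*, and *tmprss9* on the other side of *lsm7* was not called, with a log2 fold change of 0.21 (SE 0.16). BX324156.1 lies across *lsm6* on the opposite strand and had 1, 0 and 0 counts in siblings and 17, 7 and 12 in mutants. Without knowing whether the authors counted by strand, reads of *lsm6* and BX324156.1 cannot be told apart, though the latter hold a small part of the counts there. An identifier named *oscp1a* overlaps *lsm10* on the same strand and was lower in mutants (33, 45 and 37 counts against 8, 8 and 8). Another *oscp1a* identifier next to it was higher, with 93, 80 and 123 counts in siblings and 194, 205 and 178 in mutants. Reads may be split between these copies, and reads of the stretch shared with *lsm10* cannot be told apart. *psme2*, which overlaps *lsm5* on the opposite strand, and *zbtb3*, which overlaps *lsm11* likewise, were not called. Nor were *rnasen* beside *lsm5*, *ddx49* and *rab3ab* beside *lsm4*, *bag4* and *grk5l* beside *lsm1*, si:ch73-139j3.4 beside *lsm8*, or *clint1a*, *rnaseh2c* and *trmt12* beside *lsm11*. FQ377934.1 beside *lsm8*, the RF00001 copy that overlaps *lsm4* on the opposite strand and the one beside *lsm7* had at most 12 counts in any library and were not tested.

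Other proteins with an LSM domain lie outside these rings. Of 9 such genes tested, 0 were higher, 3 were lower and 6 were not called, beside 13.6% higher and 14.3% lower among all genes tested, so the share called was near that of all genes. Their median log2 fold change was -0.42 beside 0.0079 for all genes tested. *atxn2*, which encodes the RNA-binding protein ataxin-2, had 140, 113 and 108 counts in siblings and 42, 40 and 46 in mutants, a log2 fold change of -1.40 (SE 0.19). *gemin6*, a Sm-fold protein of the SMN complex, had 163, 118 and 135 counts in siblings and 82, 79 and 79 in mutants (log2 fold change -0.70, SE 0.18). *naa38*, a subunit of an N-terminal acetyltransferase, had 250, 251 and 290 and then 141, 176 and 156 counts (log2 fold change -0.65, SE 0.15). In each of these genes every mutant library was below every sibling library. *atxn2* and *naa38* lie on chromosome 5, as *sart3* does. Other called genes named here on that chromosome are *ckma* and *mepce*, lower, and *smn1*, higher. The groups were told apart by their *sart3* genotype, and the part of linked variants on chromosome 5 in these values was not tested. *lsm12a*, *lsm12b*, *lsm14aa*, *lsm14ab*, *atxn2l* and *gemin7* were not called, and *lsm14b* had at most 10 counts in any library.

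The Sm proteins form the ring of the other spliceosomal snRNAs and are the closest relatives of the Lsm proteins in structure. All 7 Sm genes tested were higher in mutants, beside 13.6% of all genes tested. The median of their log2 fold changes was 1.99, or 1.59 without *snrpf*. *snrpg* had 590, 506 and 595 counts in siblings and 2602, 2374 and 2426 in mutants, a log2 fold change of 2.22 (SE 0.079). *snrpd2* was scarce, with 13, 11 and 12 counts in siblings and 57, 48 and 50 in mutants (log2 fold change 2.18, SE 0.27). *snrpf* had 0, 0 and 2 counts in siblings and 28, 14 and 10 in mutants, and its fitted fold change is not read because it rests on so few sibling counts. Within 10 kb of its coordinates, an alternate contig of chromosome 7 held a transcript with an LSM domain and no gene name. This transcript had 470, 419 and 493 counts in siblings and 1702, 1548 and 1465 in mutants. Reads of *snrpf* may therefore be split between contigs, and its few counts are not read as its level. *snrpd1*, *snrpb*, *snrpd3l* and *snrpe* lay between 0.91 and 1.99 on the log2 scale, and *snrpd3* had 0 counts in all libraries. A transcript with an LSM domain near the *snrpd3* coordinates, on an alternate contig of chromosome 8, was not called. The 0 counts of *snrpd3* are therefore not read as absence. In the Lsm ring, by contrast, the values ran from -0.06 to 2.90 around a median of 1.07, with 2 of 6 genes not called. The difference between the rings was not tested.

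Genes that act on U6 or with the U4/U6 particle were mixed: of 11 tested, 6 were higher, 3 lower and 2 not called, with a median log2 fold change of 0.38, beside 13.6% higher and 14.3% lower among all genes tested. *mettl16*, which methylates U6, had 175, 146 and 161 counts in siblings and 1791, 1843 and 1780 in mutants, a log2 fold change of 3.58 (SE 0.093). *prpf31*, a protein of the U4/U6.U5 tri-snRNP, had 614, 550 and 595 and then 4322, 3638 and 3542 counts (log2 fold change 2.80, SE 0.084). *prpf3*, a protein of the U4/U6 snRNP, had 221, 157 and 220 and then 1526, 1168 and 1148 counts (log2 fold change 2.77, SE 0.15). Reads of *prpf3* may be split with an alternate contig, as described below. *snu13a* (2.61), *ssb* (1.86), which encodes the La protein that holds the end of new U6 before the Lsm ring, and *larp7* (0.38) were also higher on the log2 scale. *mepce*, a capping enzyme of small nuclear RNAs, was lower, with 554, 520 and 499 counts in siblings and 264, 229 and 258 in mutants (log2 fold change -0.98, SE 0.094). *tut1*, which adds uridines to the U6 end, had a log2 fold change of -0.72 (SE 0.13), and *snu13b*, the other copy of *snu13*, one of -0.34 (SE 0.083). *usb1*, which trims the U6 end, and *ppih* were not called. *prpf4* had at most 6 counts in any library.

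The partners of the cytoplasmic ring in decapping had a median log2 fold change of 0.17. Of 10 tested, 3 were higher, 0 lower and 7 not called, beside 13.6% higher and 14.3% lower among all genes tested. The share called in either direction was near the 27.9% of all genes tested. *edc4*, a scaffold of the decapping complex, had 572, 621 and 678 counts in siblings and 811, 826 and 870 in mutants (log2 fold change 0.51, SE 0.090). The helicase gene *ddx6* had a log2 fold change of 0.38 (SE 0.096) and *eif4enif1* one of 0.32 (SE 0.099). *patl1*, which encodes the protein that links the Lsm1 to Lsm7 ring to decapping, was at 79.3 ± 5.76 CPM in siblings and 80.8 ± 0.761 CPM in mutants (SD, n = 3). The decapping enzyme gene *dcp2*, *dcp1a*, *dcp1b*, *edc3*, *xrn1* and *dcps* were not called.

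For the partners of Lsm10 and Lsm11 in histone mRNA processing, 2 of 7 genes tested were higher, 1 lower and 4 not called, with a median of 0.08, beside 13.6% higher and 14.3% lower among all genes tested. *casp8ap2*, known in other vertebrates as FLASH and a binding partner of Lsm11, had 351, 490 and 508 counts in siblings and 639, 728 and 705 in mutants (log2 fold change 0.71, SE 0.15). *npat*, an activator of histone genes, had 459, 448 and 442 and then 647, 645 and 678 counts (log2 fold change 0.64, SE 0.079). *slbp*, which binds the stem-loop of histone mRNAs, had 333, 348 and 368 and then 224, 244 and 259 counts (log2 fold change -0.44, SE 0.11). Proliferation markers were lower in the same libraries, as given above, and their part in these values was not tested. Of 7 genes tested that load Sm rings onto snRNAs, 1 was higher and 6 were not called, with a median of 0.18, and the share higher was near the 13.6% of all genes tested. The gene called, *smn1*, had 209, 177 and 211 counts in siblings and 248, 230 and 262 in mutants, a log2 fold change of 0.40 (SE 0.13). *gemin6*, lower in mutants, and *gemin7*, not called, were counted with the LSM-domain genes above and not here.

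**Figure D5:**
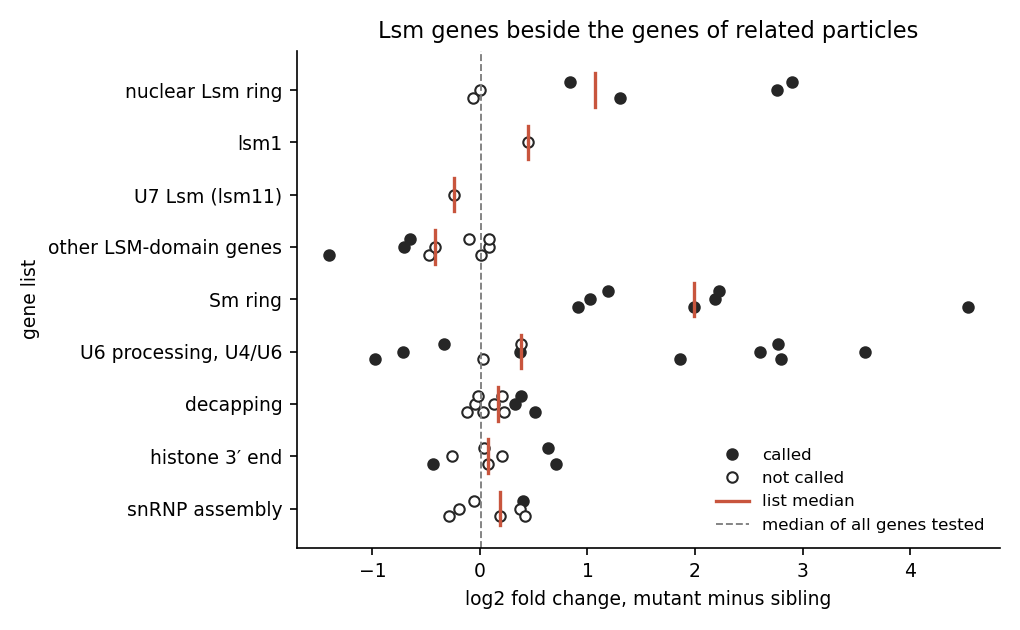
Log2 fold change (mutant minus sibling) of each gene tested, by list, with filled points for called genes, open points for genes not called, red bars at list medians and a dashed line at the median of all genes tested, 0.0079. All Sm genes lie to the right, the U6 and U4/U6 genes are spread on both sides, and the point farthest right is *snrpf*, whose fitted value rests on 2 sibling counts.

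To find the genes nearest to *lsm7*, log2 CPM values of each library were taken relative to the sibling mean of the gene, with 0.1 added. Genes were then ordered by Euclidean distance over the 6 libraries. This distance depends largely on the size of the difference between mutants and siblings, which was known when the family was chosen. The order is thus a description and does not show shared regulation. The nearest was *prpf31*, at a distance of 0.287. Next came a transcript with a PRP3 domain and no gene name on an alternate contig of chromosome 16 (distance 0.349), with 228, 181 and 176 counts in siblings and 1363, 1150 and 1271 in mutants. Its coordinates, 9435253 to 9455538, overlap those of *prpf3* on chromosome 16, 9433738 to 9453591. Reads of *prpf3* may therefore be split between both. RNF14 (1 of many) followed at 0.413, with 199, 181 and 199 and then 1258, 1231 and 1082 counts. The other genes among the 5 nearest, *ifit8* (0.447) and si:dkey-228l14.1 (0.465), had at most 1 count in any sibling library and at most 15 in any mutant library, and their place rests on the 0.1 that was added. *lsm8* was number 13 of 24808 genes in this order, at a distance of 0.605.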

How the data were processed

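RNA of 3 *sart3* mutant and 3 WT sibling libraries of whole larvae at 4 dpf was made into libraries with the NEBNext Ultra kit by the authors. The authors deposited raw read counts per gene, without normalization, and FPKM, in which these counts are scaled by gene length and library size. HISAT2 2.0.5, featureCounts 1.5.0-p3 and GRCz11 are named in the submitters' processing notes, and the strand setting of the counting is not given in the sources used here. Reads of near-identical genes, alternate contigs included, may be split or lost in such counts. The deposited splicing tables hold junction reads and inclusion values (other units) made by the authors with rMATS, and columns of the authors' own comparisons (fold changes, p-values) were not used.

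Counts were tested with R 4.3.3, edgeR 4.0.16 (filterByExpr, TMM factors, quasi-likelihood test, Benjamini-Hochberg adjusted p under 0.05 over all 24809 genes), and tables were handled in Python 3.11.15 (scipy 1.17.1, numpy 2.4.6, pandas 2.3.3). The count tests of edgeR, limma-voom and DESeq2 were tried on simulated counts with 200 genes changed and the same spread setting for all genes. Replicate libraries differed beyond sampling noise (chi-square per degree of freedom 4.47 to 13.6), and each was used as 1 replicate. This spread does not show whether they are biological replicates. Depth limits the precision of scarce genes, and confidence intervals on fold changes are at the 95% level.

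Alternatives were DESeq2 1.42.0, upper-quartile and RLE factors, limma-voom (limma 3.58.1), no filter on low counts beyond 1 read, a minimum of 10 counts per library, a limit of 1 on the absolute log2 fold change, leaving out each library, a fit with the replicate number as a block, a pseudocount of 1 in place of 0.1, CPM in place of FPKM, the ring without *lsm7* and at least 10 junction reads. The members and lists were chosen with earlier results of these data known, and the lists were written from memory. Named genes are all members, *sart3*, genes that overlap a member or lie next to it within 10 kb, up to 3 called genes in each direction per list by size of change, and the 5 genes nearest to *lsm7*; other list genes were named after their values were seen. 4 list symbols (*lsm2*, *patl2*, *wdr77*, *hbae1.1*) were not analysed.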

Additional observations from a re-analysis of the deposited data

Results flagged for a closer look

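Transcripts with an LSM domain, no gene name and a place on an alternate contig were outside the comparisons of named genes, and a pair of them carried a signal above the siblings. The transcript on an alternate contig of chromosome 7, within 10 kb of the coordinates of *snrpf*, had 470, 419 and 493 counts in siblings and 1702, 1548 and 1465 in mutants. Its mean level was 25.9 CPM in siblings and 94.14 CPM in mutants (log2 fold change 1.86, SE 0.087). *snrpf* itself had at most 28 counts in any library. The transcript at the *lsm8* coordinates on an alternate contig of chromosome 4 had a mean of 3.25 CPM in siblings and 21.39 CPM in mutants.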

How the results depend on the processing

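Of 160 values recomputed under another setting, 147 were labelled the same as the main value. For fold changes this meant the same sign and the same side of the threshold. For counts of called genes it meant a count within a fixed factor of the main one. For ratios, spreads and inclusion differences it meant a shift smaller than the larger group SD over libraries. 4 Lsm genes were called under each count model, filter and scaling and without each library in turn, and 3 when the absolute log2 fold change also had to reach 1. That limit lowered the number of all genes called from 6924 to 2063, and leaving out single libraries gave 4706 to 7085. Over all alternatives the log2 fold change was 2.83 to 2.92 for *lsm7*, 2.64 to 2.91 for *lsm8*, 1.19 to 1.39 for *lsm6*, 0.77 to 0.90 for *lsm4* and 0.31 to 0.53 for *lsm1*, whose adjusted p lay between 0.0669 and 0.214. The sign of *lsm5* turned, to -0.00476 with DESeq2, -0.0133 with upper-quartile factors, -0.00194 with RLE factors, -0.00148 with limma-voom, -0.0176 with every gene with a count and -0.00465 with the replicate block. Leaving out each library in turn gave -0.168 to 0.106 for *lsm5*, -0.164 to 0.00218 for *lsm3* and -0.397 to 0.0107 for *lsm11*. None of these genes was called under any setting tried, so the signs are not readable at this depth. The difference in spread within the ring was 0.923, 0.625 without *lsm7* and 1.02 with the alternate contig reads added to *lsm8*, which was chosen after seeing the data. With every gene kept, *lsm10* had a log2 fold change of 0.51 (SE 1.04). Deviations of same-numbered libraries from their group means correlated at 0.0643, 0.0284 and -0.107, and those of differently numbered libraries at -0.107 to 0.0835. No pairing by replicate number was seen, but so few libraries cannot settle whether samples shared a clutch or batch. With the replicate block 5941 genes were called in all and 4 Lsm genes.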

Other observations

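A transcript with an LSM domain and no gene name on an alternate contig of chromosome 8, near the coordinates of *snrpd3*, had 22, 110 and 121 counts in siblings and 676, 91 and 112 in mutants. One library of each group lay far from the others, and it was not called.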
